A study of Drosophila melanogaster with 12 samples.

Results

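The odorant-binding protein family of Drosophila melanogaster was followed at the level of transcript 3′ ends in adult heads. Members were all genes whose symbol in the Ensembl annotation is lush or Obp followed by a digit. The rule gave 52 of the 13986 protein-coding genes, and 98 of the 32302 deposited clusters of 3′ ends named at least 1 of them. Of the 52 genes, 28 had a cluster and 24 had none.

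The libraries came from heads of male and female flies. RNA bound by Pumilio (Pum), an RNA-binding protein that represses its target mRNAs, was recovered after UV cross-linking with an anti-Flag antibody and sequenced from the poly(A) tail (3′-seq). The 12 libraries form 4 groups of 3: pum IP and pum input, from flies with a Flag-HA tag at the C-terminus of endogenous Pum, and w118 IP and w118 input, from flies without the tag. The w118 label stands for the w1118 strain used as the untagged control. The deposited table places 12 count columns side by side without naming the library of any of them, so counts are given only as the sum over all 12. Such a sum mixes bound RNA with input of both genotypes. It is neither an expression level in the head nor a measure of Pum binding, and it carries no replicate spread, so no test was made. One read end marks the end of 1 transcript, so a count was not divided by transcript length. Depth is known only for the whole table, which held 152324191 counts.

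Odorant-binding proteins are small secreted proteins, held together by disulfide bonds between conserved cysteines. Those of the olfactory and taste hairs are released by support cells into the fluid around the sensory neurons, where several bind hydrophobic odorants or tastants. Other members of the family are made outside sense organs, among them in fat body, in glia and in the male reproductive tract. The receptors that detect the ligands on the neurons belong to separate families, the odorant, gustatory and ionotropic receptors.

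Pre-mRNA is usually cut and polyadenylated a short way behind a poly(A) signal, and the sequences before 10 of these ends are shown because the results on end choice turn on them. The genome is dm6, each run is at most 30 bases, 5′ to 3′ on the strand of the gene, and capitals mark the poly(A) signal hexamer AATAAA or ATTAAA nearest to the end within 6 to 60 bases upstream. To include the hexamer, some runs stop short of the end. The gap is 21 bases in Obp99c, 7 at the downstream end of Obp19d and 4 at the second internal end of Obp18a.
Obp99c (chr3R:29685751-29685780, minus strand): aaccAATAAAatgtgttcatctctatgctg
Obp19d, annotated end (chrX:20420958-20420987, plus strand): acttgataaactgagaaactgcaggcttga
Obp19d, downstream end (chrX:20421060-20421089, plus strand): tactAATAAAaaattcttgctcaatttcga
Obp18a, annotated end (chrX:19135079-19135108, minus strand): gtggaaatacataatgcaataataagtcaa
Obp18a, most read internal end (chrX:19135389-19135418, minus strand): aactatcgcctcgtaatttaccaAATAAAc
Obp18a, second internal end (chrX:19135359-19135388, minus strand): aaaaAATAAAgtatacatatatacattact
Obp99a, proximal end (chr3R:29672258-29672287, plus strand): agttAATAAAgtaattgatttcccatacaa
Obp99a, distal end (chr3R:29672301-29672330, plus strand): ttctcgattcagtggggaaaaacagaatgt
Obp83a (chr3R:5972155-5972184, minus strand): gagtAATAAAcgtaggcgagttgtgcatgc
lush (chr3L:19604398-19604427, minus strand): tcaatttatgATTAAAaacgacgaaactgt

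Among the 28 members with a cluster, the summed count spanned from 78 for Obp83b to 241597 for Obp99c. Of the 52 members 53.8% had a cluster, against 64.4% of the 13934 other protein-coding genes. The median of those listed was 5887, against 1824 for the 8980 other protein-coding genes with a cluster. Of the 28, 12 (42.9%) reached 10000 counts and 5 (17.9%) reached 100000, against 14.3% and 1.77% of the other genes. These shares are a description, since the columns allow no test. The 12 include Obp57d, whose clusters all also named the cuticle protein gene Cpr57A and lay in the 5′ UTR of Obp57d. With only clusters that name 1 gene, 27 members had a cluster. The family as a whole held 1036669 counts, 0.681% of the table. The 29973 clusters of other protein-coding genes held 90200273 of the 152324191 counts of the table.

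**Figure D1:**
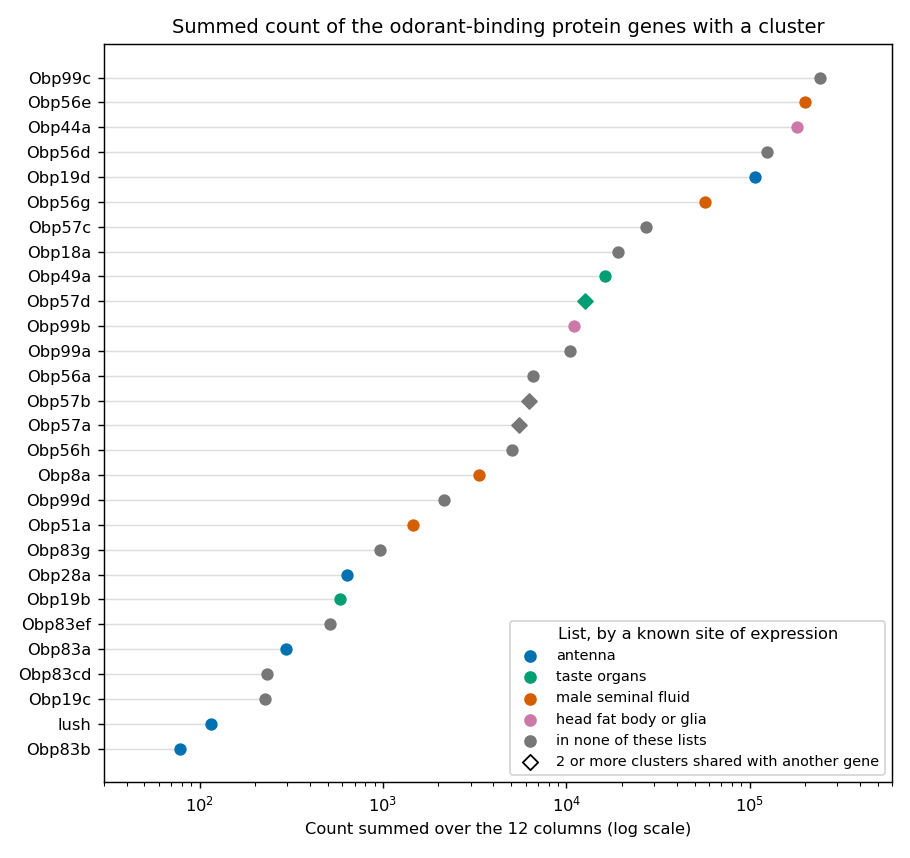
Summed count over all 12 columns (log scale) of each of the 28 odorant-binding protein genes with a cluster, 1 point per gene, coloured by lists of known sites of expression, with diamonds for genes whose count includes 2 or more clusters shared with another gene. The members run from 78 (Obp83b) to 241597 (Obp99c), and 5 of them exceed 100000.

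A few members carried most of the count. Obp99c, Obp56e and Obp44a together held 60.0% of it (95% Wilson interval 59.9 to 60.0%, counting error only), and the 6 most read genes held 87.7%. Obp99c (FBgn0039682) had 241597 counts and rank 72 among the 9008 protein-coding genes with a cluster. Obp56e (FBgn0034471) followed with 198971 counts (rank 85) and Obp44a (FBgn0033268), which is known from glia, with 180941 (rank 92). Obp56d (FBgn0034470) had 124532 counts (rank 135), Obp19d (FBgn0011280) 106187 (rank 155) and Obp56g (FBgn0034474) 57009 (rank 265). The next 6 members lay between 10488 and 27149 counts: Obp57c, Obp18a, Obp49a, Obp57d, Obp99b and Obp99a, in falling order. The count of Obp57d came only from clusters shared with Cpr57A. Obp56a, Obp57b, Obp57a and Obp56h followed with 5039 to 6613 counts, and Obp8a, Obp99d and Obp51a with 1452 to 3327. The other 9 members with a cluster stayed below 1000.

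Of the 9 members listed here as known from the antenna, those with a cluster had counts at the low end, with 1 exception. This list was chosen with earlier results of these data known. Members in none of the lists, among them Obp56d with 124532 counts, were not classed by site of expression. The pattern therefore holds only for the listed genes. Of 9 antennal genes, 5 (55.6%) had a cluster, close to the 53.8% of all 52 members. The other 4, Obp19a, Obp59a, Obp69a and Obp84a, had none. Obp59a is known for its part in sensing humidity. Obp83b had 78 counts, lush 116, Obp83a 296 and Obp28a 634, ranks 8724, 8481, 7609 and 6670 of 9008. The lush protein is required in hairs of the antenna for the response to the pheromone cis-vaccenyl acetate, and Obp83a and Obp83b are the neighbouring genes of the antennal proteins OS-F and OS-E. Obp19d was the exception, with 106187 counts. The genes of the receptors were low as well. Of 60 odorant receptor genes 3 had a cluster, with 39 to 105 counts, and Orco, the co-receptor of odorant receptors, had none. Of 60 gustatory receptor genes 6 had a cluster (46 to 157 counts), and of 60 ionotropic receptor genes 5 (61 to 507 counts). Gr64b and Gr64c had the same count, 64, and Gr64d and Gr64e the same count, 157, so these genes may share clusters. Of 8 markers of olfactory and taste organs, 4 had no cluster, namely Orco, Ir8a, Ir76b and Amt, and the others were Ir25a at 152 counts, Snmp2 at 590, Snmp1 at 1082 and Est-6 at 19809. The share of antennal tissue in the head material was not tested.

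**Figure D2:**
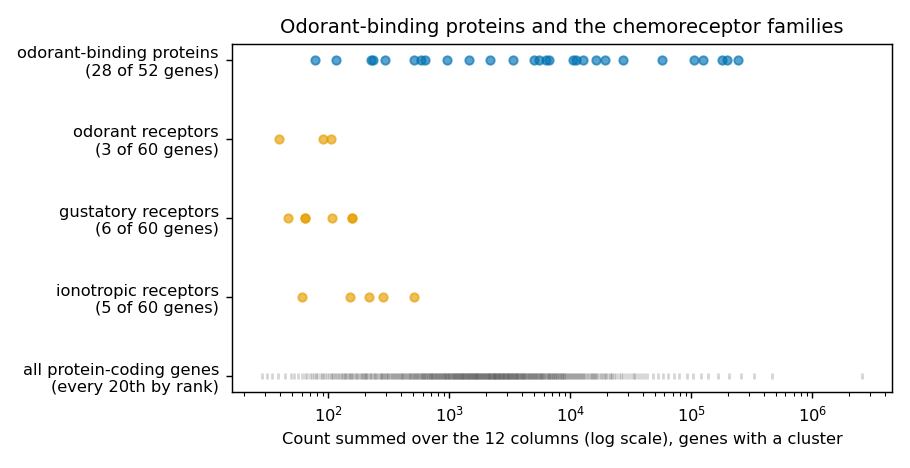
Summed count (log scale) of each gene with a cluster, in rows for the odorant-binding proteins, the odorant, gustatory and ionotropic receptors, and every 20th protein-coding gene by rank. The 28 odorant-binding protein genes cover 78 to 241597 counts, whereas no receptor gene exceeds 507.

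Members known from taste organs, head fat body or glia ran from no cluster to the 180941 counts of Obp44a. Obp49a, which is required in taste hairs for bitter compounds to suppress the sweet response, had 16267 counts in a single cluster. Obp19b, which serves the taste of amino acids, had 580 counts, and Obp57e had no cluster. Obp99b, known from the fat body of the male head, had 11032 counts. Beside it, all 6 fat body markers were listed, from 2164 counts for Lsp2 to 481444 for Yp1, and all 4 glial markers, from 4682 for repo to 62997 for Gs2. All 4 neuronal markers (8846 to 57919 counts) and both eye markers (69931 and 465493) were listed too. In the related chemosensory protein family, EbpIII had 329102 counts, Phk-3 1678 and a10 586.

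Of 7 members known as components of the male seminal fluid, 4 had a cluster. Obp56e had 198971 counts, Obp56g 57009, Obp8a 3327 and Obp51a 1452, and Obp22a, Obp56f and Obp56i had none. Beside them, all 7 markers of the male accessory gland, an organ of the abdomen, were listed, from 121 counts for Acp76A to 5555 for SP, the sex peptide gene. The counts of these markers lay far below those of Obp56e and Obp56g and in the range of Obp8a and Obp51a. Their part in the counts of the family was not tested.

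Counts differed widely between neighbours in the genome. The 4 genes of the 99 group span 45.2 kb of chromosome 3R. All had a cluster, from 2153 counts for Obp99d to 241597 for Obp99c, a ratio of 112. The 4 genes of the 19 group span 5.24 kb of the X chromosome. There Obp19d had 106187 counts, Obp19b 580 and Obp19c 226, and Obp19a had no cluster. On chromosome 3R, the 5 genes of the 83 group all had a cluster and stayed between 78 and 958 counts.

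On chromosome 2R, the 9 genes of the 56 group held 37.8% of the family count. Obp56e, Obp56d, Obp56g, Obp56a and Obp56h had a cluster, the last of these with 5039 counts, and Obp56b, Obp56c, Obp56f and Obp56i had none. None of the 5 genes of the 50 group or the 3 genes of the 58 group had one. The remaining genes with no cluster were Obp46a, Obp47a and Obp47b on the same arm, and Obp73a, Obp85a and Obp93a on chromosome 3. A gene enters the table only where at least 1 library had a peak of 6 or more reads, so a missing gene may still have had reads. The authors also removed ends followed by a stretch of A, where the primer can anneal within a transcript, unless they lay close to an annotated end. Such a stretch followed an annotated end in 3 of the 28 genes with a cluster (Obp28a, Obp56d and Obp56h) and in 1 of the 24 without (Obp58c). Of the 24 genes without a cluster, 7 had no annotated 3′ UTR, and none of the 28 with a cluster lacked one.

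The cysteine number, which divides the family into structural types, is set beside the counts here. It was counted in the longest predicted protein of each gene, signal peptide included. Of the 19 genes with 9 to 14 cysteines, 3 had a cluster (Obp49a, Obp83cd and Obp83ef), and together they held 1.64% of the family count. Of the 31 genes with 6 to 8 cysteines, 23 had a cluster, and these held 80.6%. Both genes with 5 cysteines, Obp44a and Obp8a, had a cluster. The median protein length was 144.5 residues in genes with a cluster and 196 in genes without. The cysteine classes were set after the counts had been seen.

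**Figure D3:**
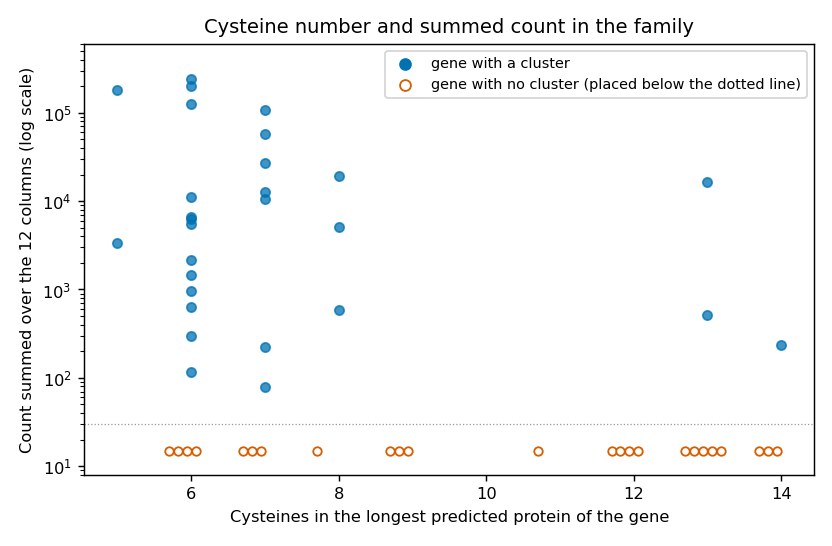
Cysteines in the longest predicted protein of each of the 52 genes (horizontal axis) against the summed count (log scale); open circles below the dotted line are genes with no cluster and have no count. Filled points crowd between 5 and 8 cysteines, and 3 of the 19 genes with 9 or more cysteines are filled.

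Most of the count of the family lay at annotated ends. Of the 98 clusters, 60 had their 3′-most base within 50 bases of an annotated transcript end of a member, 61.2% (95% Wilson interval 51.3 to 70.3%), against 55.4% of the 29973 clusters of other protein-coding genes. The interval treats clusters as independent, although up to 13 of them lie in 1 gene, so it does not measure a spread between genes. These 60 clusters held 94.6% of the family count, against 87.4% for the other genes. Of the other clusters, 18 downstream of a gene held 2.27% of the count, 11 elsewhere in a 3′ UTR held 1.71%, 3 in a 5′ UTR held 1.22% and 5 in coding sequence held 0.144%. The last one lay at the stop codon of Obp56e, 83 bases before its annotated end, and held 162 counts. The most read of these clusters lay downstream of Obp19d (14957 counts), in the 3′ UTR of Obp18a (6771) and in the 5′ UTR of Obp57d (6424 and 6205). The most read cluster of a gene lay within 10 bases of an annotated end in 19 of the 28 genes (67.9%) and within 50 bases in 23 (82.1%), against 72.7% and 85.3% of the 8980 other genes. Single-base clusters made up 51 of the 98 (52.0%), against 58.8% of the 29973 other clusters. In the family they held 1.11% of the count, from 28 to 1487 counts each. The 16 clusters of at least 10 bases held 1195 to 240856 counts, and the widest, 30 bases, was the main end of Obp99c. The 50 bases before the most read end occurred at 1 place in the genome for each of the 28 genes.

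Obp99c ended almost entirely at 1 place. Its main cluster held 240856 of 241597 counts (99.7%) and reached 6 bases beyond the annotated end. At Obp44a, 179951 counts (99.5%) lay in 1 cluster (chr2R:8134364-8134380, minus strand) that reached 6 bases beyond the proximal of 2 annotated ends, with a 3′ UTR of 140 bases, and the distal end of the 340-base 3′ UTR had no cluster. Obp56d had the same arrangement. Its main cluster (chr2R:19703119-19703142, minus strand) held 108583 counts (87.2%) and a second one 13629 (10.9%), both around the proximal end of a 146-base 3′ UTR, and there was no cluster at the distal end of the 361-base 3′ UTR. Obp56e had the most clusters of the family, 13, yet 176028 of its counts (88.5%) lay in 1 of them (chr2R:19712926-19712938, plus strand), 6 bases beyond the annotated end.

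In Obp19d, Obp18a and Obp99a the count was more divided. Obp19d had 89663 counts (84.4%) at the annotated end and 14957 (14.1%) in a cluster 117 bases further downstream. The sequence before the annotated end held no hexamer, whereas AATAAA lay 32 bases before the downstream end. In Obp18a the annotated end of its 322-base 3′ UTR held 5606 counts (29.3%), and 3 clusters 308, 288 and 274 bases upstream of it held 6771, 2330 and 3042 counts, in that order. The most read of these, 308 bases upstream, was followed by 9 A among 10 bases and was listed in the table although it lay outside the exempt zone of 25 bases around annotated ends of the release used here. Internal priming at this place was not tested. AATAAA lay 15 and 29 bases before the other 2 of the 3 clusters. Obp99a used both of its annotated ends, which are 49 bases apart: 8269 counts (78.8%) lay at the proximal and 2219 (21.2%) at the distal one. Obp83b, with 78 counts, had its single cluster 57 bases upstream of the annotated end.

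Obp56h, whose loss in males is known to change mating behaviour, split its count nearly evenly. The proximal end had 2485 counts (49.3%) and the distal end 2554 (50.7%), giving 3′ UTRs of 67 and 165 bases. It was the only member with 2 supported ends, meaning groups of clusters more than 50 bases apart and each within 50 bases of an annotated end. Thus 1 of the 26 members with a supported end had several, against 16.9% of the 8476 other genes. This gap rests on the definition. When ends within 100 bases of annotated ends were accepted, 5 of 27 members (18.5%) had several, against 23.5% of the other genes. When clusters were joined only up to 25 bases apart, 6 of 26 members (23.1%) had several, against 25.0%. Many of the second ends gained were small: they held 0.138 to 1.88% of the count in Obp99c, Obp56e and Obp57c under the closer joining, and 0.168% in Obp99c and 0.161% in Obp56d under the wider distance. The others gained held 11.2% in Obp56d and 21.2% in Obp99a under the closer joining, and 5.42% in Obp18a and 38.1% in Obp19c under the wider distance. The 2 ends of Obp99a lay too close together to be counted apart. The annotation gave several ends for 8 of the 52 genes, of which 6 had a cluster.

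**Figure D4:**
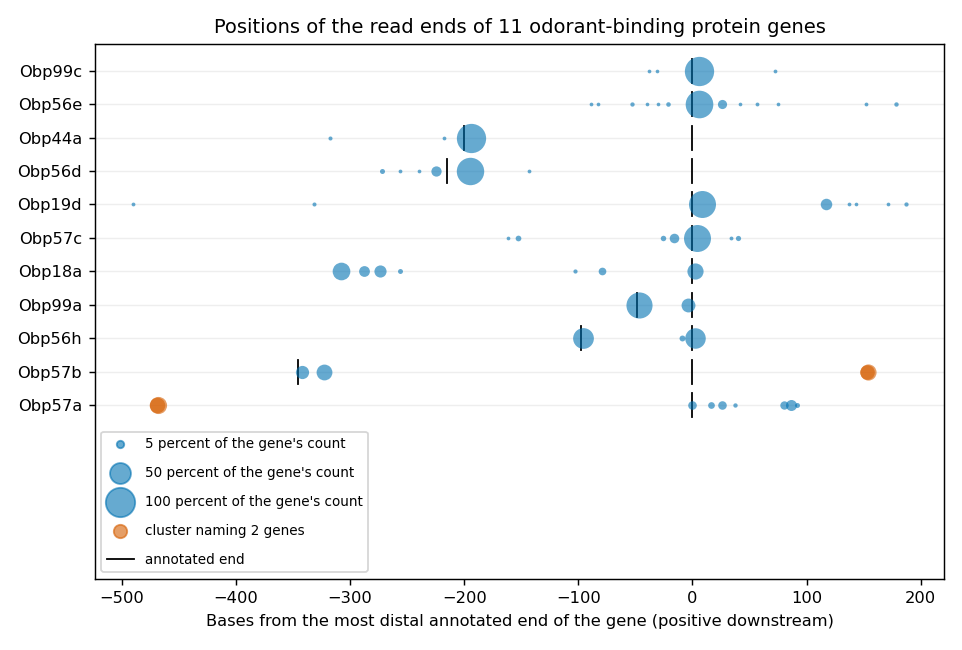
Position of every cluster of 11 members relative to the most distal annotated end of the gene (bases, positive downstream), with point area growing with the share of the gene's count, black bars at annotated ends, and orange points for clusters that name 2 genes. Obp44a and Obp56d lie at their proximal ends, Obp99a and Obp56h at both ends, and Obp18a both at its end and upstream of it.

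Some counts could not be given to 1 gene. All 3 clusters of Obp57d, a taste gene known from the response to octanoic acid, also named Cpr57A, a cuticle protein gene annotated over the same span. Their 12662 counts lay in the 5′ UTR of Obp57d, 862 to 954 bases upstream of its end. The larger ones, with 6424 and 6205 counts, overlapped each other and lay 8 and 6 bases beyond the shorter annotated end of Cpr57A. No cluster was found at the end of Obp57d itself. Obp57b and Obp57a shared 2 overlapping clusters of 1828 and 1487 counts, in the coding sequence of Obp57a and 154 and 153 bases beyond the distal annotated end of Obp57b. Without them, Obp57b had 1195 and 1758 counts at its proximal end, and Obp57a had 1036 counts at its own end. Further clusters of Obp57a held 372, 707 and 76 counts, 80, 86 and 92 bases downstream of that end. Obp8a shared 1 cluster of 114 counts with CG15368. Overlapping clusters can hold the same reads, and the 2 overlapping pairs together added at most 7692 counts to the family sum.

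The share of members with a poly(A) signal depended on the window searched. AATAAA or ATTAAA began 10 to 40 bases before the 3′-most base of the main cluster in 19 of the 28 genes (67.9%), against 66.6% of the 8980 other genes. AATAAA was found in 16 of them and ATTAAA in 3. The genes without a hexamer in that window were Obp99c, Obp56d, Obp19d, Obp56g, Obp18a, Obp99d, Obp51a, Obp83ef and Obp83cd. In a window of 1 to 50 bases, 25 of the 28 genes (89.3%) had one, against 71.1% of the other genes, and Obp19d, Obp51a and Obp83cd had none. For all genes, that window also took hexamers that run past the 3′-most base of the cluster. In Obp99d and Obp83ef the hexamer began only 2 bases before that base, so it does not lie wholly upstream of the end. In Obp99c the hexamer began 46 bases before the 3′-most base of its 30-base cluster.

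Pumilio recognises the sequence UGUANAUA, the Pumilio response element, where N is any base. The 3′ UTRs of the family were short. Over the 26 genes with a supported end, their length was 24 to 322 bases with a median of 106.5, against a median of 266 over 8465 other genes. One of the 26 genes held the element on the sense strand, Obp8a, against 21.8% of the 8465 other genes and 9.87% of the 4691 with a 3′ UTR of at most 322 bases. The shorter core UGUANA, which is contained in the element, was found in 9 of the 26: Obp56d, Obp19d, Obp56g, Obp18a, Obp99a, Obp56h, Obp8a, Obp83g and lush. These matches were sought in annotated 3′ UTRs. In Obp18a both cores lie downstream of the clusters 308, 288 and 274 bases before the annotated end, so transcripts ending there lack them. In Obp99a the core runs past the 3′-most base of the distal cluster, and so is complete only in the annotated 3′ UTR. Among other genes with a 3′ UTR of at most 322 bases, 36.4% held it. Per 1000 bases of 3′ UTR, the family had 0.331 elements and 3.31 cores, and these other genes had 0.759 and 3.47. A match to these letters is not evidence of binding, and the family held a single element. The site in Obp8a, with the element in capitals and T for U, begins at base 6 of the 3′ UTR (element at chrX:9215620-9215627, plus strand).
Obp8a: aaataTGTACATAtacaattctag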

How the data were processed

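Adult head RNA was measured by 3′-seq in 12 libraries. According to the methods, the authors trimmed reads with fastp, mapped them to dm6 (STAR 2.6.1b per the labels), masked ends that precede A-rich sequence (a run of 6 or more A, or 7 A in 10 bases) except within 25 bases of annotated ends, kept signal up to 500 bases downstream of genes, and grouped peaks of 6 or more reads into clusters. The deposited values are read counts per cluster, not normalised. The 12 count columns name no library and were used only as their sum, so no test across libraries was made. Positions are printed 1-based, from 0-based starts in the table.

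Genes and ends came from Ensembl release 115 on the dm6 assembly. A supported end was a group of clusters within 50 bases of an annotated end of the gene, joining those at most 50 bases apart. The 3′ UTR was the longest among transcripts ending at a supported cluster. Definitions were checked on artificial genes (Python 3.11.15, SciPy 1.17.1, Biopython 1.88). Wilson intervals cover counting error only, since PCR copies are not independent molecules and clusters of the same gene are not independent of each other. Values were described for the 10 genes with the highest summed count, lush, and genes with several supported ends or a main cluster over 50 bases from an annotated end; others were accounted for once, and those described further were chosen after their values were seen. Members, gene lists and comparisons were chosen with earlier results of these data known.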

Additional observations from a re-analysis of the deposited data

How the results depend on the processing

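No paired analysis was possible because the count columns name no library, and for the same reason no replicate could be left out. The number of family genes with a cluster stayed between 26 and 28 under all alternatives run. The family count of 1036669 was the same with each distinct position counted once, and became 1020578 with clusters naming 1 gene, 981116 with clusters within 50 bases of an annotated end, 795072 without Obp99c, and 1028977 with overlapping clusters counted once, an alternative chosen after seeing the data. The share of the 3 most read genes became 60.9%, 62.8% and 60.4% with clusters naming 1 gene, with clusters at annotated ends and with overlapping clusters counted once. The share of clusters at an annotated end was 45.9% within 25 bases and 75.5% within 100 bases, and that of the count 92.6% and 95.3%. The share of the count was 93.1% without Obp99c and 95.3% with overlapping clusters counted once. The number of genes with several supported ends was 5 with ends within 100 bases and 6 with clusters up to 25 bases apart joined, Obp56h among them both times and Obp99a only in the second. It was 1 with ends within 25 bases or holding at least 5% of the count. With the core UGUANA in place of the full element, 9 genes had a match in place of 1. The median 3′ UTR length was 84.5 bases for the 3′ UTR ending nearest to the most read end. The counts of genes with a poly(A) signal were 16 with AATAAA alone and 25 with the window of 1 to 50 bases, which also takes hexamers running past the end. The 116 counts of lush and the 78 of Obp83b are, like all counts here, sums over 12 columns. Because these sums are small, the ranks of both genes are less certain than those of the highly read members.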
